A study of Homo sapiens with 9 samples.

Results

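The guides described here target 8 regulators of Wnt signalling in a pooled sgRNA screen of U251, an established human glioma cell line. They were chosen by the target gene given in the guide table, as every guide against AXIN1, TNKS, TNKS2, NLK, FZD4, ZNRF3, RNF43 or RNF146. All 8 genes were in the table with 10 guides each, which made 80 of its 11170 guides and 8 of its 1117 genes. Cells that stably carried sgRNAs were left without temozolomide, a DNA-alkylating chemotherapy drug (0 µM), or were given it at 200 µM or at 1500 µM for 72 hours, with 3 libraries of guide counts per dose. The doses carry the unit of the sample titles, while the treatment protocol writes nM beside identical figures, so the unit only names the groups here. All 3 groups were U251 cells grown in DMEM with serum, and the labels do not name the nuclease, the vector or the time since infection. They also do not say whether the replicate numbers 1 to 3 mark separate cultures, so that the p-values rest on a spread among libraries that could be technical. Counts of guide DNA hold no marker genes, so the labelled cell type could not be checked.

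In canonical Wnt signalling a cytoplasmic destruction complex, built on the scaffold AXIN1, marks β-catenin for ubiquitylation and degradation. The tankyrases TNKS and TNKS2 attach poly-ADP-ribose to AXIN proteins, and the RING ubiquitin ligase RNF146 recognises this mark and drives AXIN degradation. At the cell surface Frizzled proteins such as FZD4 receive Wnt ligands, and the transmembrane ligases ZNRF3 and RNF43 remove Frizzled receptors. NLK is a kinase that phosphorylates TCF/LEF transcription factors, the nuclear partners of β-catenin. In a screen of this kind a guide that becomes more frequent under drug marks cells that were lost less than the average cell, and a guide that becomes less frequent the reverse. Setting one dose against another asks whether cells that carry guides against a given gene become more or less frequent under the drug. Loss of the target genes was not measured. The nucleotide sequences of the guides were not analysed here.

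The libraries held 1852340 to 2790563 counts each, a mean of 166 to 249.8 for every guide. Levels are given as raw counts or as CPM, the counts of a guide divided by the library total and brought to one scale. Where a guide was at 0, counting error alone leaves room for 3 counts, or 1.08 to 1.62 CPM across libraries. A single guide, UBE2A.7, held 18.6% of the counts of replicate 2 at 1500 µM and 6.07% and 4.97% of replicates 1 and 3, which lowers the CPM of every other guide there. The fitted fold changes use TMM factors, which scale libraries on the bulk of their guides. The 80 Wnt regulator guides held 0.759% (replicate 3 at 1500 µM, exact Clopper-Pearson 95% interval 0.748 to 0.771%) to 1.11% (replicate 2 at 0 µM, 1.10 to 1.13%) of the counts of a library.

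As a set, the guides were well represented. None of the 80 was at 0 in all 9 libraries, and 36 of their 720 values (5%) were 0, against 12.4% of all values in the table. A minimum of 10 counts in 3 or more libraries was set for the tests, which kept 78 of 80 guides (97.5%), against 92.5% of all guides. NLK.9 and RNF146.6 did not reach that minimum. NLK.9 had 23, 0 and 0 counts at 0 µM, none at 200 µM and 29, 0 and 8 counts at 1500 µM in replicates 1, 2 and 3, and RNF146.6 was seen in a single library with 5 counts. TNKS2 was the only one of the 8 genes with no value of 0. RNF146 had the most, 14 of 90 (15.6%), which was above the share in the table.

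For these guides, libraries that carry one replicate number resembled each other across doses. Over the 78 tested guides, the deviations from each dose's mean had correlations of 0.70 to 0.83 within a number (9 pairs) and of -0.58 to -0.15 across numbers (18 pairs). These values describe the libraries, since the guides share them. Taking out each dose's mean makes the correlations across numbers negative on average where those within a number are positive. For 73 of the 80 guides the SD between replicate numbers within a dose exceeded the SD between doses within a number, as log2(CPM + 1), against 86.2% of all guides. The median SD was 1.33 between numbers and 0.63 between doses for the 80 guides. Differences between doses are therefore given within replicate numbers as well as from the fits.

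AXIN1, the scaffold of the destruction complex, had mean levels that differed between doses by less than the SD of its libraries. Its summed level in replicates 1, 2 and 3 was 1294, 1889 and 950.2 CPM at 0 µM, 1377, 1858 and 719 CPM at 200 µM, and 1437, 1731 and 877 CPM at 1500 µM. Replicate 2 was highest and replicate 3 lowest at each dose, and the groups overlapped. The means were 1378 ± 475 CPM, 1318 ± 572 CPM and 1348 ± 434 CPM at 0, 200 and 1500 µM (SD, n = 3). These means and SDs set the pairing by number aside. At 1500 against 200 µM the log2 fold change of the AXIN1 sums was 0.21 ± 0.43, and 0.23 ± 0.10 with the replicate block. The blocked p was 0.0328 unadjusted and 0.733 adjusted in edgeR. With TMM-scaled totals AXIN1 was lower in all 3 numbers at 200 against 0 µM, as were 30.9% of all genes. It was higher in all 3 at 1500 against 200 µM, as were 12.1%. Replicate 2 held most of the counts of AXIN1.1, which had 2733, 2350 and 2979 counts in replicate 2 at the 3 doses and at most 647 in any other library.

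The guides against AXIN1 did not move together. AXIN1.5 had 50, 43 and 66 counts at 0 µM, 227, 95 and 174 at 200 µM and 341, 99 and 95 counts at 1500 µM. In CPM all 3 libraries of either dose lay above all 3 at 0 µM, and AXIN1.5 was the only member guide with this pattern at 1500 against 0 µM, where 1.49% of all guides showed it. Its log2 fold change was 1.31 ± 0.77 (SE) at 1500 against 0 µM and 1.32 ± 0.75 at 200 against 0 µM, with an adjusted p of 1.00 in edgeR's quasi-likelihood test for both. AXIN1.8 went the other way within every replicate number at both doses, with 137, 603 and 715 counts at 0 µM, 83, 263 and 446 at 200 µM and 179, 266 and 586 counts at 1500 µM. At 200 against 0 µM the log2 fold change of AXIN1.8 was -1.15 ± 0.86 without the replicate block and -1.17 ± 0.29 with it, and did not pass in edgeR (adjusted p = 1.00 for both). AXIN1.9 was abundant in replicate 2 alone, with 10, 415 and 10 counts at 0 µM, 55, 387 and 70 at 200 µM and 155, 411 and 78 counts at 1500 µM. Its blocked fold change between 1500 and 0 µM was 1.85 ± 0.73 (log2), and 0.41 ± 1.45 without it (edgeR adjusted p = 0.999 and 1.00). AXIN1.10 had 84, 74 and 268 counts at 1500 µM, against 34, 38 and 106 at 200 µM, a log2 fold change of 1.30 ± 0.89 (edgeR adjusted p = 1.00).

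Of the 2 tankyrases, TNKS had the higher mean level at each dose, while in replicate 1 TNKS2 was the higher at each dose, and the difference was not tested. Guides against TNKS were among the most abundant of the table: its mean summed level ranked 34 of 1117 genes at 0 µM, 12 at 200 µM and 22 at 1500 µM. The level in replicates 1, 2 and 3 was 1587, 2547 and 1099 CPM at 0 µM, 2097, 2214 and 1443 CPM at 200 µM and 1444, 1669 and 1352 CPM at 1500 µM, with means of 1744 ± 737, 1918 ± 416 and 1488 ± 163 CPM (SD, n = 3). At 1500 µM TNKS was lower than at 200 µM in every replicate number, as were 32.8% of all gene sums, while the libraries of the 2 doses overlapped. For the TNKS sums the fitted log2 fold change at 1500 against 200 µM was -0.21 ± 0.28 without the block and -0.20 ± 0.09 with it (edgeR adjusted p = 0.999 and 0.733).

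Single TNKS guides went in opposite directions. TNKS.3, the most abundant of them, had 678, 1296 and 215 counts at 1500 µM, against 805, 1646 and 359 at 200 µM. TNKS.6 was higher within every replicate number at 200 against 0 µM, with 459, 227 and 860 counts at 200 µM, against 145, 85 and 367 at 0 µM. TNKS.1 was lower there, with 0, 551 and 17 counts at 200 µM, against 18, 1141 and 76 at 0 µM. TNKS.6 had a log2 fold change of 1.01 ± 0.80 at 200 against 0 µM, and 1.13 ± 0.32 with the block, and did not pass in edgeR (adjusted p = 1.00 for both).

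TNKS2 was higher at 200 than at 0 µM in every replicate number and over most of its guides, but did not pass the test. Its summed level was 2323, 673 and 1039.9 CPM in replicates 1, 2 and 3 at 200 µM, against 1669, 515 and 749 CPM at 0 µM. The 3 differences were 0.48, 0.39 and 0.47 on the log2 scale of CPM + 1, where the median of all genes was 0.16, 0.04 and -0.04. The groups overlapped, with replicate 1 above the others at both doses. The log2 fold change was 0.37 ± 0.58 without the block and 0.39 ± 0.12 with it (95% interval 0.11 to 0.66), with adjusted p-values of 0.998 and 0.811 in edgeR and an unadjusted p of 0.0120 with the block. The direction turned without replicate 1 at 200 µM (-0.25) in the fit without the block. That fit keeps replicate 1 at 0 µM alone, so the value also carries the difference between replicate numbers.

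Averaged over replicate numbers, 9 of 10 guides were higher at 200 than at 0 µM, with log2 ratios from -0.10 for TNKS2.1 to 1.26 for TNKS2.8 and a median of 0.64. The median ratio over the 1117 genes was 0.08, and that of TNKS2 ranked 12, or 32 when guides at 0 in 5 or more libraries were left out of every gene. In replicate 3 all 10 guides were higher, and 8 of 10 were in each of replicates 1 and 2. Higher in all 3 replicate numbers were 6 of its 10 guides, against 14.4% of all guides, and 4 of 10 against 9.39% when library totals were TMM-scaled. TNKS2.2 had 232, 145 and 95 counts at 200 µM, against 67, 61 and 42 at 0 µM, and its CPM did not overlap between these groups.

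At 1500 µM the TNKS2 level was 1738, 540.0 and 979.9 CPM in replicates 1, 2 and 3, and the means at the 3 doses were 978 ± 610, 1345 ± 866 and 1086 ± 606 CPM (SD, n = 3). The SD of the libraries at each dose exceeded the differences between these means, which sets the pairing by number aside. At 1500 against 0 µM the TNKS2 sums had a log2 fold change of 0.20 ± 0.55, and 0.27 ± 0.16 with the block (edgeR adjusted p = 1.00 and 0.810). The unblocked value turned without replicate 1 at 1500 µM (-0.31) or replicate 2 at 0 µM (-0.13), fits that also carry the difference between replicate numbers. At 1500 against 200 µM 9 of 10 guides were lower on average, with a median log2 ratio of -0.32 against -0.06 for all genes. That comparison shares the 200 µM libraries with the other. TNKS2.9 had 110, 42 and 196 counts at 1500 µM, against 311, 90 and 414 counts at 200 µM and 150, 62 and 265 counts at 0 µM.

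RNF146, the ligase that acts with the tankyrases, had its lowest mean in plain CPM at the highest dose, as did TNKS, FZD4, ZNRF3 and RNF43. With the most abundant guide of each library left out of its total, RNF43 was instead lowest at 200 µM. Its means were then 1233, 1170 and 1205 CPM at 0, 200 and 1500 µM, while the other genes named here stayed lowest at 1500 µM. The median of all genes was 873, 873 and 795 CPM at 0, 200 and 1500 µM. The summed level of RNF146 in replicates 1, 2 and 3 was 1247, 931 and 1613 CPM at 0 µM, 1277, 833 and 1225 CPM at 200 µM and 1236, 712 and 944 CPM at 1500 µM, with means of 1264 ± 341, 1112 ± 243 and 964 ± 263 CPM (SD, n = 3). All 3 numbers were lower at 1500 than at 0 µM, as in 23.5% of all gene sums. RNF146 differed by -0.01, -0.39 and -0.77 on the log2 scale of CPM + 1, number 3 by the most, and the groups overlapped. Its log2 fold change was -0.30 ± 0.33, and -0.29 ± 0.17 with the block (edgeR adjusted p = 1.00 and 0.810). Over its 10 guides the median log2 ratio was -0.55, rank 1108 of 1117 genes from the highest, with 7 of 10 guides lower. That median lay between RNF146.6, which is almost absent, and RNF146.2, which was at 0 in 5 of 9 libraries. Without guides at 0 in 5 or more libraries, RNF146 kept 8 guides, 5 of them lower, with a median of -0.35 and rank 1041.

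RNF146.7 was the most abundant RNF146 guide. It had 369, 805 and 751 counts at 1500 µM, against 321, 1201 and 1780 at 0 µM, and held 59.6% of the RNF146 counts in replicate 3 at 0 µM (exact 95% interval 57.8 to 61.4%). Without it the log2 fold change of RNF146 at 1500 against 0 µM was -0.01. RNF146.7 itself had -1.01 ± 0.91, and -0.89 ± 0.33 with the block (edgeR adjusted p = 1.00 and 0.999). RNF146.4 moved against it, with 406, 338 and 514 counts at 200 µM, against 123, 210 and 273 at 0 µM, and no overlap of the CPM values.

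FZD4, the Frizzled receptor, was the least abundant of the 8 genes at 200 µM after ZNRF3, and its sum was dominated by 1 guide in 1 replicate. The summed level in replicates 1, 2 and 3 was 545, 1694 and 610.0 CPM at 0 µM, 662, 1548 and 688 CPM at 200 µM and 562, 1125 and 519 CPM at 1500 µM. Replicate 2 was highest at each dose through FZD4.3, which had 2639, 1939 and 1865 counts there and 67.5% of the FZD4 counts at 0 µM (exact 95% interval 66.0 to 68.9%). The means were 950 ± 645, 966 ± 504 and 735 ± 338 CPM (SD, n = 3), and the SDs exceeded the differences between neighbouring doses, which sets the pairing by number aside. Within numbers FZD4 differed by -0.24, -0.46 and -0.41 at 1500 against 200 µM on the log2 scale of CPM + 1. The median of all genes was -0.13, -0.30 and -0.03 there. The log2 fold change of FZD4 in this comparison was -0.21 ± 0.48, and -0.22 ± 0.12 with the block, which did not pass in edgeR. FZD4.7 had 97, 176 and 130 counts at 0 µM, 241, 238 and 361 at 200 µM and 153, 83 and 82 counts at 1500 µM. Its CPM values at 200 µM all lay above those of both other doses. At 1500 against 200 µM its log2 fold change was -1.46 ± 0.59, and -1.49 ± 0.40 with the block (edgeR adjusted p = 1.00 for both). FZD4.9 was lower than at 0 µM in every replicate number, with 33, 137 and 68 counts at 1500 µM, against 48, 312 and 133 at 0 µM, a log2 fold change of -1.23 ± 0.93 (edgeR adjusted p = 1.00).

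ZNRF3 and RNF43, the ligases that remove Frizzled receptors, were both lower at 1500 than at 0 µM within every replicate number, which 23.5% of all gene sums were. ZNRF3 itself had 782, 574 and 665 CPM at 1500 µM, against 838, 666 and 998 CPM at 0 µM, and its log2 fold change was -0.21 ± 0.29 (edgeR adjusted p = 1.00). At 200 µM it had 922, 738 and 664 CPM. Its guides were the most even of the 8 genes, since the most abundant, ZNRF3.3, was 5.92 times the scarcest over the 9 libraries.

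RNF43 had 580.2, 1547 and 1043 CPM at 1500 µM, against 809, 1725 and 1121 CPM at 0 µM, and 671, 1766 and 1028 CPM at 200 µM. Its fitted change at 1500 against 0 µM (log2) was -0.07 ± 0.46, and -0.15 ± 0.16 with the block (edgeR adjusted p = 1.00 and 0.896). Here too replicate 2 rested on a single guide, RNF43.9, with 3024, 2535 and 2945 counts at 0, 200 and 1500 µM. In the other replicates RNF43.9 had 114 and 35 counts at 1500 µM, against 344 and 81 at 0 µM. RNF43.7 had 227, 0 and 245 counts at 1500 µM, against 550, 5 and 411 at 0 µM, and its log2 fold change was -1.57 ± 1.89, and -1.72 ± 0.53 with the block (edgeR adjusted p = 1.00 and 0.999). RNF43.10 was higher in each number, with 287, 77 and 289 counts at 1500 µM, against 91, 57 and 132 at 0 µM.

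NLK, the kinase of TCF/LEF factors, had 1569, 1161 and 929 CPM at 0 µM, 1714, 1273 and 1099 CPM at 200 µM and 1559, 904 and 1213 CPM at 1500 µM. The means were 1219.8 ± 324, 1362 ± 317 and 1226 ± 328 CPM (SD, n = 3), and the SDs exceeded the differences between neighbouring doses, which sets the pairing by number aside. The 10 guides had a median log2 ratio of 0.42 at 1500 against 0 µM, rank 54 of 1117 genes (0.38 and rank 105 without NLK.9 and the guides of other genes at 0 in 5 or more libraries), while the log2 fold change of the sums was 0.08 ± 0.35 (edgeR adjusted p = 1.00). The guide ratios were uneven between replicates: 10 of 10 guides were higher in number 3, 5 in number 1 and 4 in number 2. NLK.2 stood apart between the drug doses, with 348, 82 and 143 counts at 1500 µM, against 32, 32 and 46 counts at 200 µM and 95, 39 and 68 counts at 0 µM. All 3 libraries at 1500 µM lay above all 3 at 200 µM, which 0.931% of all guides showed. Its log2 fold change there was 2.27 ± 0.80, and 2.09 ± 0.67 with the block (edgeR adjusted p = 1.00 for both, unadjusted p = 0.0234 and 0.0171), and at 200 against 0 µM it was -1.26 ± 0.96.

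None of the 8 genes passed edgeR's quasi-likelihood test on summed counts in any of the 3 comparisons, where 0.00% of the 1117 genes passed. No member was under an unadjusted p of 0.05 in these 24 tests, where the whole table held 3, 0 and 1 such genes (0.269%, 0.00% and 0.0895%) in the order 1500 against 0, 200 against 0 and 1500 against 200 µM. Blocked, 0.0895%, 0.00% and 0.00% of all genes passed, and none was a member. With the replicate block 3 of the 24 edgeR tests had an unadjusted p under 0.05. These were TNKS2 at 200 against 0 µM and AXIN1 and TNKS at 1500 against 200 µM. Of all genes, 5.37% and 6.62% had an unadjusted p under 0.05 in those comparisons. AXIN1 had a blocked log2 fold change of 0.23 ± 0.10 at 1500 against 200 µM (edgeR adjusted p = 0.733). At 1500 against 0 µM the blocked 95% intervals of the 8 log2 fold changes lay between -0.65 (RNF146) and 0.60 (TNKS2), and those without the block lay between -1.46 (FZD4) and 1.46 (TNKS2). The median log2 fold change of the 8 genes was -0.10 at 1500 against 0 µM, -0.08 at 200 against 0 µM and -0.07 at 1500 against 200 µM, against -0.03, -0.03 and -0.01 for all genes.

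Nor did a member guide pass in edgeR, where 0.00% of the 10337 tested guides did in each comparison. Under an unadjusted p of 0.05 were 0 of 78 tested members at 1500 against 0 and at 200 against 0 µM, and 2 at 1500 against 200 µM (NLK.2 and FZD4.7), where 0.203%, 0.135% and 0.203% of all guides were. With the block 5, 6 and 4 members were, against 2.61%, 2.23% and 1.95% of all guides, and none passed. DESeq2's Wald test with the replicate block called 3 member guides at 1500 against 200 µM, all lower, where it called 0.416% of all guides. These were FZD4.7 (log2 fold change -1.51 ± 0.34, DESeq2 adjusted p = 0.0110), TNKS2.9 (-1.30 ± 0.36, 0.0489) and TNKS.3 (-0.52 ± 0.15, 0.0498), the last named after its values were seen. DESeq2 without the block called no member, as it called 0.00% of all guides, and had 0, 0 and 2 members under an unadjusted p of 0.05, against 0.590%, 0.387% and 0.319%. With the block it called none in the other 2 comparisons, where it called 0.0580% of all guides in each. DESeq2 called none of the 8 gene sums, with or without the block. Of all genes it called 0.0895%, 0.00% and 0.0895% without the block, in the order of comparisons used above, and 0.269%, 0.0895% and 2.15% with it.

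Directions within replicate numbers were near the background in most counts. At 1500 against 0 µM 11 of the 80 guides were higher in all 3 numbers and 9 lower, against 11.4% and 10.8% of all guides. At 200 against 0 µM 15 were higher and 5 lower, against 14.4% and 7.91%. At 1500 against 200 µM 4 were higher and 16 lower, against 7.95% and 15.3%. With TMM-scaled totals the counts were 11 and 11, 11 and 9, and 8 and 10, against 11.3% and 11.7%, 9.39% and 12.9%, and 12.4% and 10.7% of all guides. Of the 15 higher guides at 200 against 0 µM by plain CPM, 6 targeted TNKS2.

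Summed levels were also set against each other within replicate numbers. TNKS2 was higher at 1500 than at 0 µM in all 3 numbers (1 of 8, against 6.0% of all genes) and ZNRF3, RNF43 and RNF146 were lower (3 of 8, against 23.5%). At 200 against 0 µM TNKS2 and NLK were higher (2 of 8, against 19.9%) and none lower (8.68%). At 1500 against 200 µM none was higher (2.95%) and TNKS, TNKS2, FZD4 and RNF146 were lower (4 of 8, against 32.8%). The scaling changes these backgrounds: with TMM-scaled totals 6.36% and 29.9%, 6.18% and 30.9%, and 12.1% and 15.8% of all genes were higher and lower. TNKS2 was then the member that stayed higher at 200 against 0 µM, and no member was higher at 1500 against 0 µM.

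Groups of libraries that did not overlap in CPM were rare. No member guide lay wholly below at 1500 against 0 µM (1.04% of all guides did). At 200 against 0 µM AXIN1.5, FZD4.7, RNF146.4 and TNKS2.2 lay wholly above (4 of 80, against 1.60%), and none wholly below (0.564%). At 1500 against 200 µM NLK.2 lay wholly above and FZD4.7 wholly below (1 of 80 each, against 0.931% and 1.49%).

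The wider Wnt list held 87 genes, of which 34 were in the table and 26 were not among the 8. None of the 26 passed edgeR's test in any comparison. At 1500 against 0 µM 12 were higher and 14 lower with a median log2 fold change of -0.01, against -0.03 for all genes, and 1 had an unadjusted p under 0.05. At 200 against 0 µM 12 were higher and 14 lower (median -0.01), and at 1500 against 200 µM 10 were higher and 16 lower (median -0.11). With the block the majority turned at 200 against 0 µM, to 16 higher and 10 lower in edgeR (median 0.07) and 17 and 9 in DESeq2 (median 0.08). EP300, an acetyltransferase that acts as a β-catenin co-activator, had the lowest p among higher genes in each, with 31880, 14202 and 12433 summed counts at 1500 µM, against 5573, 5009 and 5925 at 0 µM and a log2 fold change of 1.55 ± 0.57 (edgeR adjusted p = 1.00). FZD8, another Frizzled receptor, was the next at 1500 against 0 µM with 0.15 ± 0.32, and the lowest p-values among lower genes belonged to the HECT ligase SMURF2 (-0.33 ± 0.56) and the co-repressor TLE1 (-0.43 ± 0.74).

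BTRC, the F-box protein that binds phosphorylated β-catenin, had its highest mean level at 200 µM. It had 2034, 2171 and 1317 summed counts at 0 µM, 3044, 2480 and 2144 at 200 µM and 2916, 2030 and 1522 counts at 1500 µM. Its log2 fold change was 0.32 ± 0.33 at 200 against 0 µM and -0.34 ± 0.30 at 1500 against 200 µM, both with an adjusted p of 1.00 in edgeR. The cullin CUL3 had -0.29 ± 0.28 at 200 against 0 µM and 0.22 ± 0.26 at 1500 against 200 µM. CREBBP, the relative of EP300, had -0.25 ± 0.39 at 200 against 0 µM, and the ligase SIAH1 -0.31 ± 0.36 at 1500 against 200 µM. DESeq2 with the replicate block called EP300 as higher at 1500 and at 200 against 0 µM (log2 fold changes 1.48 ± 0.19 and 0.95 ± 0.14, adjusted p = 5.15e-12 and 3.67e-08) and BTRC as lower at 1500 against 200 µM (-0.35 ± 0.09, adjusted p = 0.0182). With the same block edgeR gave adjusted p-values of 0.359 and 0.811 for EP300 and 0.552 for BTRC in these comparisons, so the calls were lost. In replicate 1 at 200 µM a single guide, EP300.4, held 0.41% of the library's 2068712 counts, where the EP300 sum was 10622 counts. How the other EP300 guides moved was not examined. DESeq2 with the block called 0.269%, 0.0895% and 2.15% of all genes at 1500 against 0, 200 against 0 and 1500 against 200 µM.

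Across the 9 libraries the summed levels of the 8 genes varied more between replicate numbers than between doses. The SD between numbers was 4.32 times that between doses for AXIN1, 4.22 for RNF43, 3.62 for TNKS2 and 3.22 for FZD4, against a median of 2.06 over all genes. It was below that median for the other 4, at 1.93 for NLK, 1.53 for TNKS, 1.51 for RNF146 and 1.09 for ZNRF3. The levels, as log2(CPM + 1), were most like those of TRIM55 and RANBP10 for AXIN1 (Pearson r 0.99 and 0.96 over 9 libraries), TAB2 and FAF2 for TNKS (both 0.96), UBE2N and PSME1 for TNKS2 (both 0.99), and KBTBD7 and FHIT for NLK (0.97 and 0.96). They were most like ZC3HC1 and FBXW11 for FZD4 (0.99 and 0.98), SOCS4 and LRR1 for ZNRF3 (0.90 and 0.89), PRMT3 and PARK2 for RNF43 (both 0.98) and UBR4 and NLE1 for RNF146 (both 0.91). Among the pairs of members, TNKS2 and RNF43 had the strongest correlation and ran opposite to each other (r -0.94). These likenesses carry no p, since libraries of a number share their levels, and the 95th percentile of r over all genes was 0.82 for AXIN1 and 0.90 for TNKS2.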

How the data were processed

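The raw counts of each sgRNA in 9 libraries, deposited by the authors as whole numbers, were used unchanged. Per the submitters' processing notes, the tools were cutadapt 1.18 and MAGeCK 0.5.8 and the build hg19. The sources used here give no counting settings. Counts were also summed over the 10 guides of a gene, since guides of a gene are not replicates. Guides or sums that reached 10 counts in 3 or more libraries were tested with edgeR 4.0.16 (TMM, robust quasi-likelihood test) on the 6 libraries of each pair of doses, without a block, with Benjamini-Hochberg adjustment over the whole table at 0.05. SEs in edgeR were obtained by dividing the size of a fold change (log2) by the root of its F statistic. Alternatives used DESeq2 1.42.0, limma 3.58.1, other filters and scalings, the replicate block and left-out libraries, in R 4.3.3 and Python 3.11.15. The fits were also run on simulated counts. No outcome of that run is given, so it does not show how well the fits recover changes in these libraries. Depth was 1852340 to 2790563 counts per library.

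Replicate numbers were taken to pair the libraries, because deviations from the dose means of same-numbered libraries correlated at 0.66 to 0.78 over 10337 guides in all 9 pairs. This comes from the data, as the labels do not state what a number marks. The members and the Wnt list were chosen with earlier results of these data known. Named guides are the 2 per direction and comparison with the lowest p without and with the block. Named Wnt list genes are the 2 per direction and comparison with the lowest p, and like genes the 2 of highest correlation. Other guides were named after their values were seen.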

Additional observations from a re-analysis of the deposited data

How the results depend on the processing

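With 3 libraries per dose, which differ mainly by replicate number, none of the 24 fold changes of the 8 genes passed in any alternative. In 216 values under settings other than left-out libraries, 10 changed sign. Without the most abundant guide of each gene AXIN1 at 1500 against 0 µM was -0.052 and RNF146 at 200 against 0 µM 0.028. With the mean log2 of the guides in limma ZNRF3 was 0.025 at 1500 against 0 µM, AXIN1 0.28, ZNRF3 0.089 and RNF43 0.14 at 200 against 0 µM, and NLK 0.27 and RNF43 -0.24 at 1500 against 200 µM. With the replicate block FZD4 at 200 against 0 µM was 0.049 in edgeR and 0.056 in DESeq2. The cause of these changes was not tested. Leaving out libraries in turn, in edgeR fits without the block, moved 19 of 24 across 0, with no adjusted p under 0.997. Leaving out a library keeps its replicate number at a single dose, so these ranges also carry the differences between numbers. At 1500 against 0 µM the values ranged over -0.22 to 0.36 (AXIN1), -0.39 to 0.22 (TNKS), -0.31 to 0.90 (TNKS2), -0.12 to 0.35 (NLK), -0.79 to 0.47 (FZD4), -0.36 to -0.10 (ZNRF3), -0.57 to 0.25 (RNF43) and -0.51 to -0.13 (RNF146). At 200 against 0 µM they ranged over -0.46 to 0.19 (AXIN1), -0.19 to 0.46 (TNKS), -0.25 to 1.09 (TNKS2), -0.10 to 0.37 (NLK), -0.54 to 0.71 (FZD4), -0.28 to -0.04 (ZNRF3), -0.57 to 0.23 (RNF43) and -0.39 to -0.07 (RNF146). At 1500 against 200 µM they ranged over -0.11 to 0.53 (AXIN1), -0.39 to -0.10 (TNKS), -0.70 to 0.46 (TNKS2), -0.22 to 0.17 (NLK), -0.77 to 0.30 (FZD4), -0.17 to 0.076 (ZNRF3), -0.45 to 0.48 (RNF43) and -0.28 to 0.046 (RNF146). AXIN1.9 at 1500 against 0 µM ranged over -0.67 to 4.06 and AXIN1.1 at 1500 against 200 µM over -1.36 to 2.22, and the other named guides kept their sign. Their sizes moved, at 1500 against 0 µM over 0.64 to 1.59 (AXIN1.5), 0.43 to 1.51 (NLK.2), -2.01 to -0.46 (FZD4.9), -1.40 to -0.50 (RNF146.7) and -2.16 to -0.74 (RNF43.7), at 200 against 0 µM over -1.35 to -0.33 (RNF146.7), 0.63 to 1.70 (TNKS.6), -1.55 to -0.72 (AXIN1.8) and -1.58 to -0.75 (NLK.2), and at 1500 against 200 µM over 0.44 to 1.79 (AXIN1.10) and -1.90 to -0.85 (TNKS2.9).

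Over the whole table edgeR called 0 guides and 0 genes in each comparison, with and without each library in turn. With the replicate block edgeR called 0 guides and 1 gene at 1500 against 0 µM and none elsewhere. DESeq2 called 1 gene at 1500 against 0 µM, 0 at 200 against 0 µM and 1 at 1500 against 200 µM, and with the replicate block 3, 1 and 24 genes and 6, 6 and 43 guides. Without the most abundant guide in the library total, TNKS at 1500 µM had 1669.8 CPM in place of 1488. TMM-scaled totals, chosen after the data were seen, gave 0 and 4 member gene sums higher and lower in all numbers at 1500 against 0 µM (1 and 3 with plain totals), 1 and 3 at 200 against 0 µM (2 and 0) and 1 and 3 at 1500 against 200 µM (0 and 4), and 9 lower guides at 200 against 0 µM and 8 higher and 10 lower at 1500 against 200 µM. Leaving out guides at 0 in 5 or more libraries, also chosen after the data were seen, moved the median guide ratio of RNF146 at 200 against 0 µM to 0.092, in place of -0.062.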
